A study of Mus musculus with 6 samples.

Results

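DNA repair genes were compared, pathway by pathway, between cells of a mouse adenocarcinoma line given the compound PTC-209 and cells given its solvent. The set was a list of 52 genes, chosen with earlier results of these data known, and sorted into homologous recombination, the Fanconi anaemia pathway, mismatch repair, excision repair, end joining and the damage checkpoint. Of these, 51 had a probe set that the platform annotation assigns to that gene alone, among 19937 named genes measured in all. Xrcc2 had none and was not analysed here. Where a gene had several probe sets, the one with the highest mean over the 6 arrays was used. Gene expression had been measured on Affymetrix arrays as log2 values. For 3 arrays the RNA came from A316 cells given PTC-209 dissolved in 0.5% DMSO, a compound labelled as inhibiting Bmi, and for 3 it came from A316 cells given 0.5% DMSO alone. Both groups lack C/EBP alpha, since A316 is labelled a cebp alpha knock out primary adenocarcinoma line, and all arrays are of this line only. No dose or treatment time is given in the sources used here. Whether the 3 samples per group were grown as separate cultures is not stated, so p-values below reflect the spread among these samples, part or all of which may be technical.

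A cell mends its DNA by several routes. Homologous recombination copies an intact sister chromatid to repair a broken one and therefore works after replication, while end joining ligates broken ends directly and works throughout the cycle. The Fanconi anaemia proteins unhook crosslinks between the strands at stalled replication forks, mismatch repair corrects copying errors behind the fork, and nucleotide and base excision repair cut out damaged stretches or single damaged bases. The kinases Atm, Atr, Chek1 and Chek2 hold the cycle while damage or stalled forks persist. Many recombination and Fanconi genes are known to be transcribed mainly in proliferating cells, around S phase, whereas much of excision repair is expressed in resting cells too.

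Repair genes were mostly lower in cells given PTC-209. Of the 51 measured genes 33 fell, 4 rose and 14 did not pass the test, where a gene rose or fell when its limma adjusted p was under 0.05. Among all named genes the same test called 13.7% lower and 12.9% higher, against 64.7% lower and 7.84% higher among the repair genes. The median log2 difference, PTC-209 minus DMSO, was -0.72 over the repair genes and 0.03 over all named genes. At least a 2-fold fall was seen for 21 repair genes, or 41.2%, and for 4.3% of all named genes. For 34 repair genes all 3 PTC-209 arrays lay below all 3 DMSO arrays, which held for 19.4% of all named genes. For 4 genes they lay above, against 21.1% of all genes. The mean log2 level over the 51 genes was 5.50, 5.40 and 5.39 on the PTC-209 arrays and 6.38, 6.25 and 6.23 on the DMSO arrays. Each PTC-209 array was therefore lower than each DMSO array, and the arrays of a group lay close together. In a bulk RNA sample fewer cells that express a gene and less of its RNA per cell cannot be told apart.

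**Figure D1:**
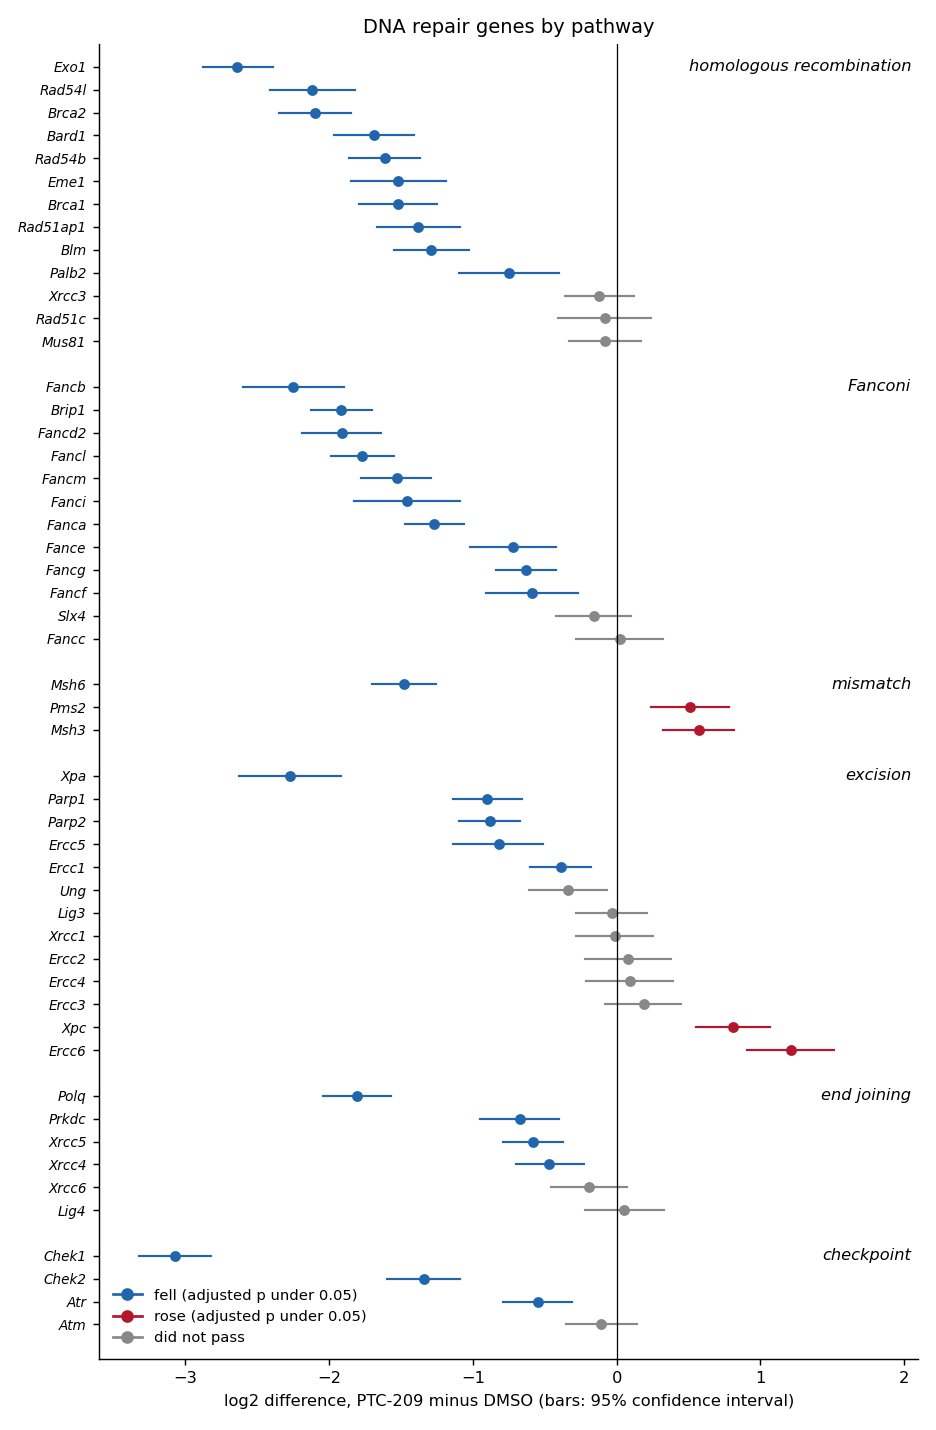
Log2 difference, PTC-209 minus DMSO, of the 51 measured DNA repair genes, grouped by pathway and sorted within it, with bars for the 95% confidence interval from limma. Homologous recombination and Fanconi genes lie mostly left of 0, excision repair genes lie on both sides, and the 4 genes that rose are Msh3, Pms2, Xpc and Ercc6.

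Falls were most frequent in the Fanconi pathway, with 10 of 12 genes, and in homologous recombination, with 10 of 13, and neither had a rise. The checkpoint had 3 falls among 4 genes and end joining had 4 among 6, again with 0 rises. Excision repair had 5 falls and 2 rises among 13 genes, and mismatch repair 1 fall and 2 rises among 3. Taking recombination and Fanconi genes together, the median log2 difference was -1.46 over 25 genes and 16 fell at least 2-fold. For the other 26 genes the median was -0.36 and 5 fell at least 2-fold. The difference between pathways was not tested, since the genes of a pathway are not replicates. Genes that mark proliferating cells moved in the same direction on the same arrays: of 19 measured on a marker list 18 fell and 0 rose, with a median log2 difference of -1.96. Their mean log2 level was 6.69 to 6.86 on the PTC-209 arrays and 8.59 to 8.67 on the DMSO arrays. The proliferation antigen Mki67 averaged 6.08 ± 0.48 with PTC-209 and 8.73 ± 0.11 in DMSO (SD, n = 3 each). The part that the proliferation genes have in the repair result was not tested.

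In homologous recombination, the genes that fell included ones for resecting a broken end, for preparing resected DNA and for invading the partner DNA. The 10 falls had log2 differences between -2.64 and -0.75, and the pathway's median log2 difference was -1.52. Exo1, the nuclease that resects broken ends and also serves mismatch repair, read 4.34, 4.39 and 4.52 on the PTC-209 arrays, against 7.21, 6.91 and 7.05 on the DMSO arrays. This was a gap of more than 2 log2 units with no overlap, and a 6.23-fold lower level (limma adjusted p = 5.29e-07). Brca2, which acts on resected DNA before it invades the partner, read 5.00, 4.97 and 4.94 with PTC-209 and 7.25, 7.06 and 6.90 in DMSO. Its PTC-209 arrays were nearly equal, and the level was 4.29-fold lower (limma adjusted p = 1.33e-06). Rad54l, a motor protein that aids invasion of the partner DNA, read 4.56, 4.54 and 4.53 with PTC-209 and 6.96, 6.49 and 6.53 in DMSO. It was 4.34-fold lower, with the highest DMSO value on replicate 1 (limma adjusted p = 3.62e-06).

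Further falls covered the partners of these proteins. Brca1 and Bard1, which form a ubiquitin ligase at breaks, were 2.87-fold and 3.23-fold lower. All 3 probe sets of Bard1 fell, by 1.05 to 1.69 on the log2 scale. The helicase Blm, which dissolves recombination intermediates, read 6.19, 5.82 and 5.99 with PTC-209 and 7.35, 7.30 and 7.22 in DMSO, a 2.45-fold lower level. For 4 genes that fell the PTC-209 level lay under the median brightness of all tested probe sets, 4.33, where a fold is uncertain, so the levels are given. Rad54b, a relative of Rad54l, averaged 4.07 with PTC-209 and 5.69 in DMSO. Rad51ap1, a cofactor of strand pairing, averaged 3.79 with PTC-209 and 5.17 in DMSO, and Eme1, the partner of the nuclease Mus81, averaged 4.21 with PTC-209 and 5.73 in DMSO. Palb2, which joins Brca1 to Brca2, averaged 3.82 with PTC-209 and 4.57 in DMSO.

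Not every recombination gene followed. Xrcc3, which acts in strand exchange, read 5.33, 5.31 and 5.35 with PTC-209 and 5.33, 5.63 and 5.40 in DMSO, so the groups overlapped (log2 difference -0.12, 95% confidence interval -0.36 to 0.12, limma adjusted p = 0.494). Rad51c, which acts with Xrcc3, had a log2 difference of -0.08 (95% confidence interval -0.41 to 0.24). Mus81 itself had one of -0.08 as well (95% confidence interval -0.33 to 0.17), at a level under the median brightness in both groups. All 3 intervals lie above -0.75, the smallest fall among the genes of the pathway that passed. That fall, of Palb2, has a 95% confidence interval of its own, -1.10 to -0.40, which just meets that of Rad51c.

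**Figure D2:**
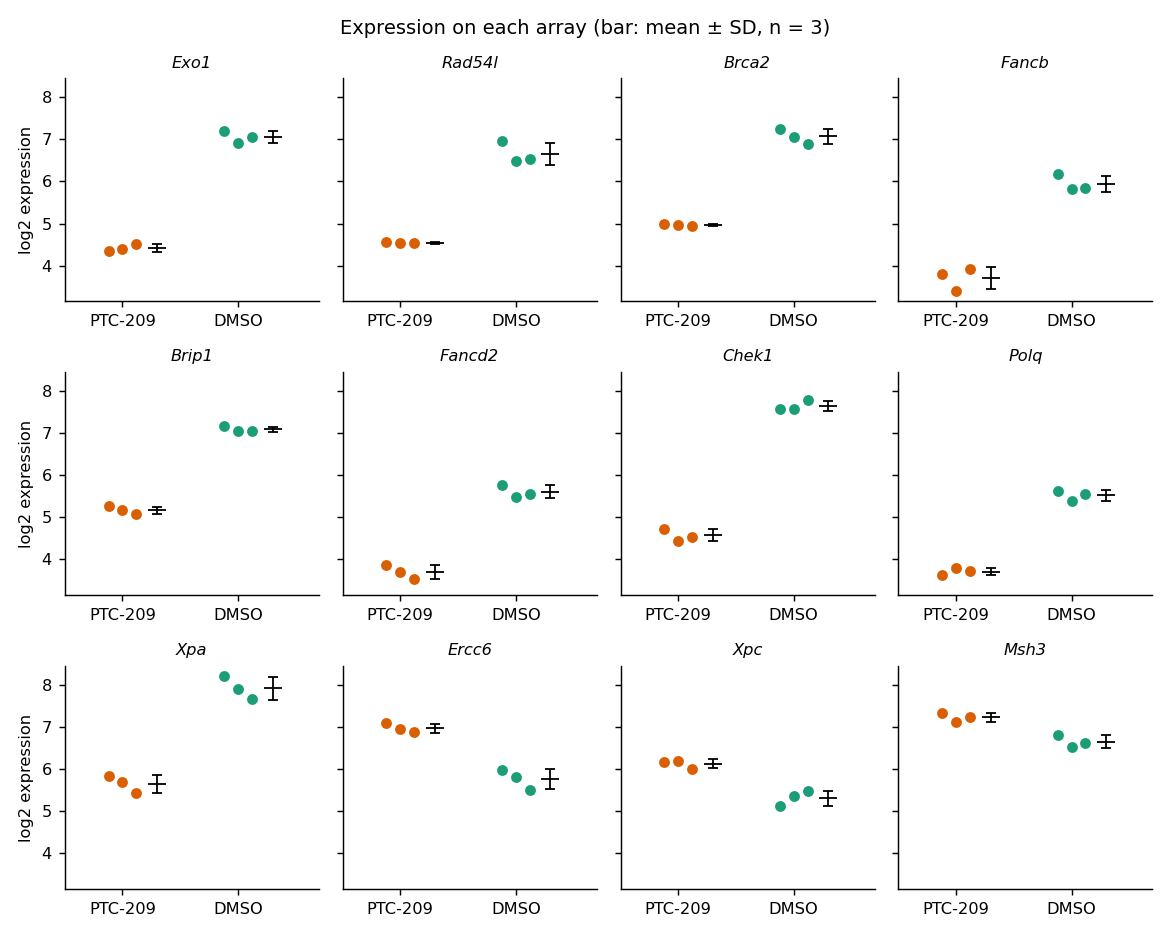
Log2 expression of 12 repair genes on each array, PTC-209 left and DMSO right in every panel, with points for arrays and a bar for the mean ± SD (n = 3). The first 9 panels, Exo1 to Xpa, show genes that were lower with PTC-209 and the last 3, Ercc6, Xpc and Msh3, genes that were higher, and the groups overlap in none of these 12 panels.

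In the Fanconi pathway, subunits of the core complex, its substrates and a downstream helicase were lower. The core complex is a ubiquitin ligase that marks the pair Fancd2 and Fanci, and 7 of its 8 measured subunits or close partners fell. Fancb read 3.79, 3.39 and 3.91 with PTC-209 and 6.17, 5.82 and 5.85 in DMSO. The PTC-209 values are below the median brightness, so the difference, -2.25 on the log2 scale, is uncertain in size (limma adjusted p = 6.48e-06). Fancd2 read 3.87, 3.70 and 3.53 with PTC-209, also dim, and 5.78, 5.49 and 5.56 in DMSO, without overlap (limma adjusted p = 4.28e-06). Brip1, a helicase that binds Brca1 and is also called Fancj, read 5.26, 5.18 and 5.09 with PTC-209 and 7.17, 7.06 and 7.05 in DMSO. It was 3.78-fold lower, with an SD of 0.08 with PTC-209 and 0.07 in DMSO (limma adjusted p = 1.07e-06).

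Fancl, the catalytic subunit of the core complex, was 3.41-fold lower, and its arrays lay between 4.88 and 5.02 with PTC-209 and between 6.63 and 6.81 in DMSO. Fanci averaged 4.21 ± 0.19 with PTC-209 and 5.67 ± 0.31 in DMSO (SD, n = 3 each). Fancm, the translocase that brings the core complex to DNA, averaged 3.94 with PTC-209 and 5.47 in DMSO, and Fanca 4.03 with PTC-209 and 5.29 in DMSO. Smaller falls were found for Fance (1.65-fold), Fancg (1.55-fold) and Fancf (1.51-fold), and the call of Fancf was lost without PTC-209 replicate 3. The scaffold Slx4, which holds several nucleases, read 5.36, 5.17 and 5.03 with PTC-209 and 5.47, 5.30 and 5.27 in DMSO, with overlapping groups (limma adjusted p = 0.398). The remaining core subunit, Fancc, was under the median brightness in both groups, at 3.90 with PTC-209 and 3.88 in DMSO.

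Mismatch repair genes went both ways. Msh6, a subunit of the complex that recognises base mismatches, read 6.67, 6.48 and 6.55 with PTC-209 and 8.01, 8.12 and 8.0 in DMSO, a 2.78-fold lower level (limma adjusted p = 5.24e-06). Msh3, the subunit found in place of Msh6 in the complex for larger loops, read 7.33, 7.11 and 7.24 with PTC-209 and 6.82, 6.53 and 6.61 in DMSO, a 1.49-fold higher level (limma adjusted p = 0.00414). So these alternative subunits differed in direction, each with no overlap between the groups. Pms2, a subunit of the complex that acts after recognition, read 7.29, 6.85 and 7.15 with PTC-209 and 6.59, 6.60 and 6.57 in DMSO, a 1.42-fold higher level (limma adjusted p = 0.0124). Neither Msh3 nor Pms2 passed against a minimum fold change of 1.2, under which 0 mismatch repair genes rose.

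Nucleotide excision repair genes had log2 differences from -2.27 to 1.21, with 3 falls and 2 rises among 8. Xpa, which verifies the lesion and holds the incision complex together, read 5.84, 5.69 and 5.42 with PTC-209 and 8.21, 7.90 and 7.66 in DMSO. That is a 4.83-fold lower level without overlap (limma adjusted p = 6.82e-06). Ercc6, the Cockayne syndrome B protein that starts repair at stalled RNA polymerase, read 7.09, 6.96 and 6.88 with PTC-209 and 5.97, 5.82 and 5.50 in DMSO. It was 2.31-fold higher, the largest rise among the 51 measured genes (limma adjusted p = 1.23e-04). Xpc, which finds lesions outside transcribed strands, read 6.16, 6.20 and 6.01 with PTC-209 and 5.11, 5.36 and 5.47 in DMSO, a 1.75-fold higher level (limma adjusted p = 7.13e-04). Both of the genes that rose act at the recognition of a lesion, and their groups did not overlap. These 2 rises are 25% of the 8 genes here and 15.4% of the 13 excision repair genes, against 12.9% of all named genes. PTC-209 arrays lay above all DMSO arrays for 21.1% of all named genes. Further genes of that step, from the list described below, went both ways. Rad23b and Uvssa rose, Cetn2 (1.66-fold) and Ddb2 (1.37-fold) fell, and Ddb1 and Ercc8 did not pass.

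Of the nucleases that cut around a lesion, Ercc5, also called Xpg, read 6.69, 6.35 and 6.19 with PTC-209 and 7.37, 7.23 and 7.11 in DMSO (1.77-fold lower, limma adjusted p = 0.00179). Ercc1 was 1.31-fold lower, the smallest fall that passed, and it no longer passed when DMSO replicate 3 or PTC-209 replicate 2 was left out. Ercc4, its partner nuclease, had a log2 difference of 0.09 (95% confidence interval -0.21 to 0.39). The helicases of transcription factor TFIIH did not pass: Ercc3 read 8.17, 7.96 and 8.08 with PTC-209 and 8.05, 7.69 and 7.92 in DMSO (limma adjusted p = 0.328), and Ercc2 had a log2 difference of 0.08.

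In base excision and strand break repair, the poly(ADP-ribose) polymerases Parp1 and Parp2 were lower, whereas Parp3, of the further genes, had a log2 difference of 0.14 and did not pass (limma adjusted p = 0.38). Parp1, which senses strand breaks, read 7.11, 7.11 and 6.98 with PTC-209 and 8.14, 7.87 and 7.91 in DMSO (1.87-fold lower, limma adjusted p = 2.04e-04). Parp2 read 6.79, 6.86 and 6.95 with PTC-209 and 7.83, 7.74 and 7.68 in DMSO (1.84-fold lower, limma adjusted p = 1.17e-04). The ligation pair Xrcc1 and Lig3, which seals the nick, did not pass. Lig3 read 6.41, 6.25 and 6.39 with PTC-209 and 6.55, 6.31 and 6.29 in DMSO, with a log2 difference of -0.03 (95% confidence interval -0.28 to 0.21), and Xrcc1 had one of -0.01 (95% confidence interval -0.28 to 0.25). Ung, the glycosylase that removes uracil, lay lower on all 3 PTC-209 arrays but missed the threshold (log2 difference -0.34, limma adjusted p = 0.074). It passed when dim probe sets were left out, with array weights, with the replicate block and without PTC-209 replicate 3.

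End joining differed within itself. Polq, the polymerase of theta-mediated joining, which uses short homologies at resected ends, read 3.62, 3.79 and 3.73 with PTC-209 and 5.62, 5.38 and 5.56 in DMSO. The groups were far apart (log2 difference -1.81, limma adjusted p = 2.41e-06), although the PTC-209 level is under the median brightness. Genes of the classical route had smaller differences or did not pass. Xrcc5, the Ku80 subunit that binds broken ends, read 7.90, 7.99 and 7.88 with PTC-209 and 8.43, 8.59 and 8.48 in DMSO (1.49-fold lower, limma adjusted p = 0.00147). Its partner Xrcc6, Ku70, read 6.99, 6.84 and 6.77 with PTC-209 and 7.22, 7.09 and 6.87 in DMSO, with a slight overlap (limma adjusted p = 0.302). Prkdc, the kinase that Ku recruits, read 5.99, 5.81 and 5.61 with PTC-209 and 6.62, 6.37 and 6.45 in DMSO (1.60-fold lower, limma adjusted p = 0.00288). Xrcc4, the scaffold of the ligase, was 1.38-fold lower, while the ligase Lig4 had a log2 difference of 0.05 (95% confidence interval -0.22 to 0.33).

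Among the checkpoint kinases, both members of the replication stress arm were lower. Chek1, the kinase that Atr activates at stalled forks, read 4.72, 4.44 and 4.53 with PTC-209 and 7.57, 7.57 and 7.78 in DMSO. It was 8.41-fold lower, the largest fall among the 51 measured genes of the set, and it ranked 29 among the 19937 named genes ordered from the largest fall (limma adjusted p = 2.61e-07). Atr itself read 6.58, 6.28 and 6.44 with PTC-209 and 7.04, 6.92 and 7.0 in DMSO, 1.47-fold lower (limma adjusted p = 0.00389). In the arm of double strand breaks, Chek2 read 4.90, 4.96 and 4.74 with PTC-209 and 6.38, 6.10 and 6.15 in DMSO, 2.54-fold lower (limma adjusted p = 2.34e-05). The kinase above it, Atm, read 6.35, 6.33 and 6.16 with PTC-209 and 6.54, 6.26 and 6.38 in DMSO, so its groups overlapped (log2 difference -0.11, 95% confidence interval -0.35 to 0.14, limma adjusted p = 0.569).

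A further list of 99 genes of the same pathways, chosen in the same way, was examined beside the members. Of its 87 measured genes 36 fell and 8 rose, or 41.4% and 9.2%, with a median log2 difference of -0.14. The falls were spread as 8 of 17 in homologous recombination, 7 of 12 in the Fanconi pathway, 1 of 2 in mismatch repair, 8 of 33 in excision repair, 3 of 8 in end joining and 9 of 15 in the checkpoint. The rises were 1, 0, 0, 5, 0 and 2 in the same pathways. Gen1, a nuclease that resolves recombination junctions, read 4.98, 5.22 and 4.24 with PTC-209 and 8.32, 8.34 and 8.30 in DMSO. It was 11.4-fold lower, with an SD of 0.51 with PTC-209 and 0.02 in DMSO (limma adjusted p = 3.17e-06). Clspn, the adaptor through which Atr reaches Chek1, was 4.51-fold lower, and Tipin, of the fork protection complex, 4.06-fold lower. Neil3, a glycosylase of replicating cells, averaged 3.88 with PTC-209 and 6.18 in DMSO. The largest rises were those of Rad9a, of the clamp that activates Atr (2.07-fold), Rad23b, the partner of Xpc (1.87-fold), Aptx, which clears aborted ligations (1.64-fold), and Uvssa, which acts with Ercc6 at stalled polymerase (1.43-fold).

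**Figure D3:**
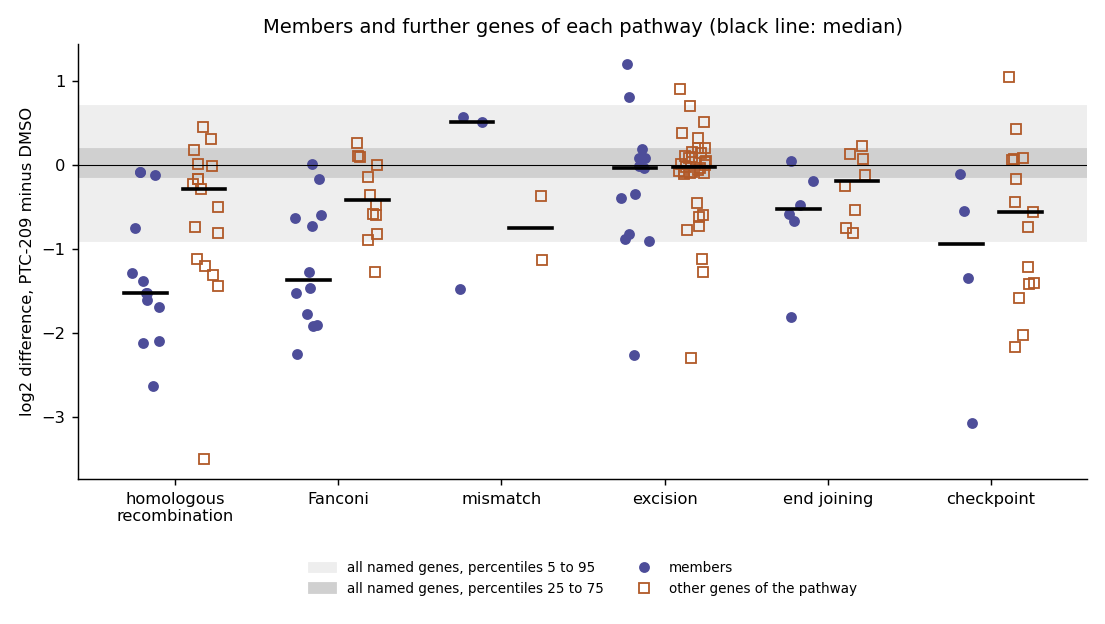
Log2 difference, PTC-209 minus DMSO, of the 51 repair genes (filled) and of the 87 further genes of the same pathways (open squares), with a black line for the median and grey bands for the percentiles of all named genes. The medians of the repair genes are -1.52 for homologous recombination, -1.36 for Fanconi genes, -0.95 for the checkpoint and -0.03 for excision repair.

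Since so many members were lower together, their promoters were searched for motifs of cell cycle genes: the E2F letters TTTCCCGC, TTTGGCGC, TTTGCCGC and TTTCGCGC, the letters TTTGAA and TTCGAA of the cell cycle genes homology region (CHR), and CCAAT, each on both strands. RefSeq windows of 300 bases, 250 before to 50 after an annotated start of the gene on build GRCm38.p6, were at hand for 45 of the 51 measured genes. E2F letters were found for 8 of these 45 genes, or 17.8%, and for 3.48% of the 15613 named genes with a window. The share was 17.2% among repair genes that fell (5 of 29) and 18.8% among those that did not (3 of 16). These shares lay close together, but counts of 5 and 3 genes are too few to tell whether the groups differ. The 5 that fell were Bard1, Brca2, Chek2, Fancg and Msh6, and the other 3 were Msh3, which rose, with Rad51c and Xrcc6, which did not pass. CHR letters were found for 5 of 29 genes that fell (Atr, Bard1, Eme1, Ercc5 and Polq) and 0 of 16 others, while 19% of all named genes have them. CCAAT was found for 55.2% of the genes that fell, 56.2% of the others and 41.7% of all named genes. A match of letters is a description and not a binding site. Nor does the lack of a match show that a site is absent, since only these exact letters were searched. Of the E2F factors themselves, 2 of 8 measured fell, E2f7 and E2f8, and 0 rose, while 13.7% of all named genes fell and 12.9% rose. E2f1 to E2f6 did not pass, with log2 differences from -0.34 (E2f1) to 0.22 (E2f4).

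**Figure D4:**
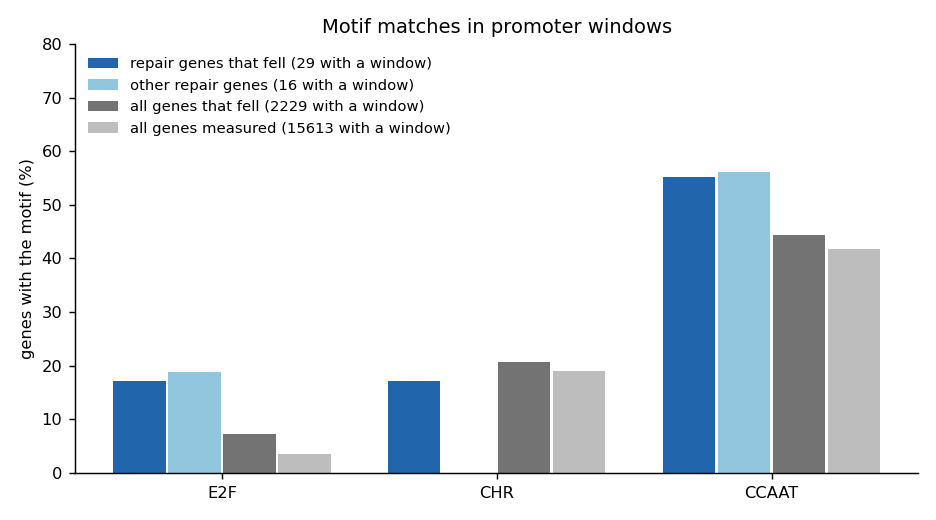
Share of genes, in percent, whose 300 base promoter window holds the E2F, CHR or CCAAT letters on either strand, for repair genes that fell, other repair genes, all named genes that fell and all named genes with a window. For E2F the bars of the repair gene groups, 17.2% and 18.8%, both stand above 7.22% for all genes that fell and 3.48% for all genes.

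Windows of 4 genes are printed to show what the search saw: the gene with the largest fall among the 51, a fall with CCAAT near the start, a fall with E2F letters and a rise with E2F letters. They lie at chr9:36726609-36726908 for Chek1, chr4:116123641-116123940 for Rad54l and chr13:92354954-92355253 for Msh3, all on the minus strand, and at chr5:150522371-150522670 for Brca2 on the plus strand. Capitals mark the letters searched for. Positions are counted from the annotated start on which the window is built, with negative numbers before it, and the annotated Brca2 gene extends upstream of its window. Chek1 holds 0 exact matches, and Rad54l has CCAAT at -50 to -46. Brca2 has TTTCCCGC on the opposite strand at -168 to -161. Msh3 has TTTGGCGC at -202 to -195 overlapping TTTCGCGC on the opposite strand at -198 to -191. Near variants are left unmarked. The end of the Chek1 window holds TTTGGCGG, which differs from TTTGGCGC only in the last letter. Later in its window Brca2 holds TTTCGCGG, which differs from TTTCGCGC only in the last letter.
Chek1: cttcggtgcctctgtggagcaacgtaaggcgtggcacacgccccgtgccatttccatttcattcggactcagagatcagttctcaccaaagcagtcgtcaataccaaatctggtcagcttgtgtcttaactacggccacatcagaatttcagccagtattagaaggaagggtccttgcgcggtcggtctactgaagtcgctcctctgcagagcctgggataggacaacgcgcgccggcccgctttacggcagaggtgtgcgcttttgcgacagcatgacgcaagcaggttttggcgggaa
Rad54l: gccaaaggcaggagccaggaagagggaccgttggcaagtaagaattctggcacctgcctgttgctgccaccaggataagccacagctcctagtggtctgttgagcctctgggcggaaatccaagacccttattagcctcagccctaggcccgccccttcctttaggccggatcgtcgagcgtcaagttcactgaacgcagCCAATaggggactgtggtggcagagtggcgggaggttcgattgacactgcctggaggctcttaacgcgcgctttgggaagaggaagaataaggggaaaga
Brca2: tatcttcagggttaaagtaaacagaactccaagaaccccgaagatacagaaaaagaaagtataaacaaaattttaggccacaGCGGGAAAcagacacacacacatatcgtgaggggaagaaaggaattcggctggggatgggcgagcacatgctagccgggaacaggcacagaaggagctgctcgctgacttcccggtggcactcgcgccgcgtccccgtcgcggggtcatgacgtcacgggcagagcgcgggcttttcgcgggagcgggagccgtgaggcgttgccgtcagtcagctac
Msh3: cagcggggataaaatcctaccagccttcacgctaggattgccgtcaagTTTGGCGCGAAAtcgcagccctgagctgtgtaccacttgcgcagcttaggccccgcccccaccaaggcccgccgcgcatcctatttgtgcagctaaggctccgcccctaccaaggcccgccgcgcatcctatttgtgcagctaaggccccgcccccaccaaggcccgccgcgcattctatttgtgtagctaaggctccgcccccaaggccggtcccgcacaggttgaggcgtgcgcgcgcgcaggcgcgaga

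Marker lists were used to describe the cells, which cannot establish the identity of the line. Epithelial genes were present in both groups, with Krt8 at 10.58 with PTC-209 and 11.41 in DMSO and Cdh1 at 10.25 with PTC-209 and 9.90 in DMSO. Of the 8 on the list 4 fell (Krt7, Krt8, Krt18 and Krt19) and 2 rose (Cdh1 and Cldn4), with log2 differences from -1.51 to 0.66. For comparison with this and the marker counts below, 13.7% of all named genes fell and 12.9% rose. Of 11 markers of differentiated lung epithelium, 9 were under the median brightness in at least 1 group, among them Nkx2-1 (3.72 with PTC-209, 3.60 in DMSO) and Sftpc (2.60 with PTC-209, 2.85 in DMSO). The other 2 were Ager, at 4.89 with PTC-209 and 4.75 in DMSO, and Sftpa1, at 4.51 with PTC-209 and 4.33 in DMSO. Of other cell types, 1 of 7 leukocyte markers rose, Cd68 (10.03 with PTC-209, 7.42 in DMSO). Of 6 endothelial markers 1 fell, Cdh5, which was bright in both groups (8.15 with PTC-209, 9.48 in DMSO). The leukocyte marker Ptprc (3.06 with PTC-209, 3.17 in DMSO) and the endothelial marker Pecam1 (3.51 with PTC-209, 3.39 in DMSO) were under the median brightness. The mean log2 level of the leukocyte list was 4.24 to 4.33 with PTC-209 and 3.78 to 3.90 in DMSO, with Cd68 included. Its other 6 markers lay between -0.26 and 0.23 in log2 difference. The endothelial list averaged 3.96 to 4.08 with PTC-209 and 4.09 to 4.17 in DMSO, with Cdh5 included. Of 8 fibroblast markers 0 fell and 0 rose. In that list 4 were under the median brightness in at least 1 group. Col1a1 (5.02 with PTC-209, 4.98 in DMSO), Col1a2, Col3a1 and Pdgfra were above it in both groups.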

How the data were processed

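Log2 expression values of 34760 probe sets on 6 Affymetrix arrays were used as the authors deposited them, with array medians of 4.07 to 4.14. They were made with RMA, per the submitters' processing notes, and their range shows the log2 scale. RMA gives all arrays nearly the same distribution and so hides any shift common to most genes. Groups come from the titles; the samples' description, which names embryo stages against all other labels, was not used. A block of 6568 control probe sets with consecutive identifiers was left out. Of the 28192 others 21640 have 1 gene in the platform annotation.

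Treatment was the only term of a limma 3.58.1 fit (R 4.3.3, eBayes) on all 28192, with Benjamini and Hochberg adjustment over them. The number of arrays, 3 per group, limits the precision. The fit was tested on simulated data. Values on every array are given, per pathway, for the 3 largest called differences, calls against the majority and the brightest gene that did not pass; of the further genes, the 4 largest falls and rises are named. The members and lists were chosen with earlier results of these data known. The alternatives were a trended robust prior, array weights, a minimum fold of 1.2, dim probe sets left out, the mean of a gene's probe sets, 3 other scalings, the replicate block, and each array left out in turn. Figures were drawn with matplotlib 3.10.9, and promoter windows come from RefSeq.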

Additional observations from a re-analysis of the deposited data

How the results depend on the processing

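The counts and directions by pathway were recomputed under 9 alternatives that keep all arrays and 6 that leave out 1. Of the 37 repair genes called, 31 kept their call and direction under every alternative run on them, and 0 called genes turned sign. The minimum fold change of 1.2 ended the calls of Fancf, Msh3, Pms2, Ercc1, Xrcc4 and Atr, so that 2 repair genes rose in all and 0 in mismatch repair. Without 1 array, 32 to 33 genes fell and 4 rose, with 4 to 6 falls in excision repair and 9 to 10 in the Fanconi pathway; Ercc1 and Fancf lost calls and Ung gained one. The cause was not tested. Whether the replicate numbers pair arrays across the groups is not stated, and the values do not settle it. Deviations of arrays with the same number correlated at 0.231, 0.07 and 0.073 for numbers 1, 2 and 3. Of the 6 arrays, 3 deviated most with their own number. The fit with the replicate block gained Ung and changed no other call: 34 genes fell and 4 rose, with 6 falls in excision repair. Only genes that did not pass changed sign. Fancc had a log2 difference of -0.01 with cyclic loess and -0.02 with array weights, Xrcc1 0.05 with quantile normalization again and with array weights, Lig3 0.02 with quantile normalization again, and Lig4 -0.02 with array weights. Without 1 array in turn, the log2 difference ran from -0.25 to 0.05 for Rad51c, -0.17 to 0.01 for Mus81, -0.07 to 0.14 for Fancc, -0.01 to 0.22 for Ercc2, -0.03 to 0.17 for Ercc4, -0.09 to 0.10 for Xrcc1, -0.08 to 0.05 for Lig3 and -0.05 to 0.14 for Lig4. The median of all probe sets was 0.033 as deposited and 0.003 to 0.029 under the other scalings. Signal near the background limits the size of the difference for the 12 genes with a group under 4.33.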
